A study of Mus musculus with 44 samples.

Results

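Among the 11 livers of KO mice, 4 (animals 532, 583, 602 and 611) gave libraries in which long genes took fewer reads, and short genes more, than in the other 7 (animals 561, 568, 570, 587, 588, 597 and 598). These 4 are called the length-biased KO livers below. They were chosen from the expression values themselves. For each liver library, the deviation of each gene's log2 CPM (the read count scaled to a common library total, with a prior count of 2) from the gene's mean over 22 livers was regressed on the log2 of the gene's length, and a KO liver with a slope under 0 became a member. The comparison therefore sets 4 of 11 KO livers against the remaining 7, out of 44 libraries in the series, and every difference between these livers in how genes are expressed is a description without a test.

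The libraries came from male C57BL/6N mice, either WT or KO littermates with a CRISPR/Cas9 deletion in Slc16a13 carried by every tissue. Slc16a13 encodes MCT13, a monocarboxylate transporter of the plasma membrane. Every mouse, WT included, had been fed HFD for 15 weeks and was killed at 20 weeks of age after an overnight fast, so no group on a control diet enters here. RNA of liver and skeletal muscle was poly(A)-selected and sequenced, with 11 libraries for each genotype and tissue. A number shared between tissues was read as the same mouse, and the labels do not say which libraries were sequenced in the same pool, so pool and group cannot be told apart.

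In poly(A)-selected RNA-Seq the number of reads on a gene depends on how many of its mRNAs were present and on how much of each mRNA entered the library. Gene length is also tied to function. Many short mRNAs encode the small subunits of ribosomes, of the respiratory chain and of the splicing machinery, and secreted proteins such as the small apolipoproteins. Many long mRNAs encode large scaffolds, such as chromatin remodellers, giant ubiquitin ligases and cytoskeletal linkers, together with receptors and transcription factors that carry long 3′ UTRs. A shift along gene length thus moves whole functional classes together.

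The slope on gene length was -0.57 in animal 532, -0.44 in 602, -0.26 in 583 and -0.083 in 611, in units of log2 CPM per 1 unit of log2 length. In the other KO livers it ran from 0.041 to 0.113 with a median of 0.083, and in the 11 WT livers from 0.041 to 0.103. Animal 611 lay just inside the threshold of 0 and animal 587, at 0.041, just outside it. The 4 members were therefore a graded series and not a tight cluster, with 611 closer to the other KO livers than to 532. Gene length accounted for 36.6% of the variance of the deviations in 532, 42% in 602, 31% in 583 and 7.96% in 611, against 2.11% to 14.3% in the other KO livers, so on this measure 611 lay within their range. Below, values of the 4 length-biased livers are always given in the order 532, 602, 583 and 611, from the steepest slope to the shallowest.

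**Figure D1:**
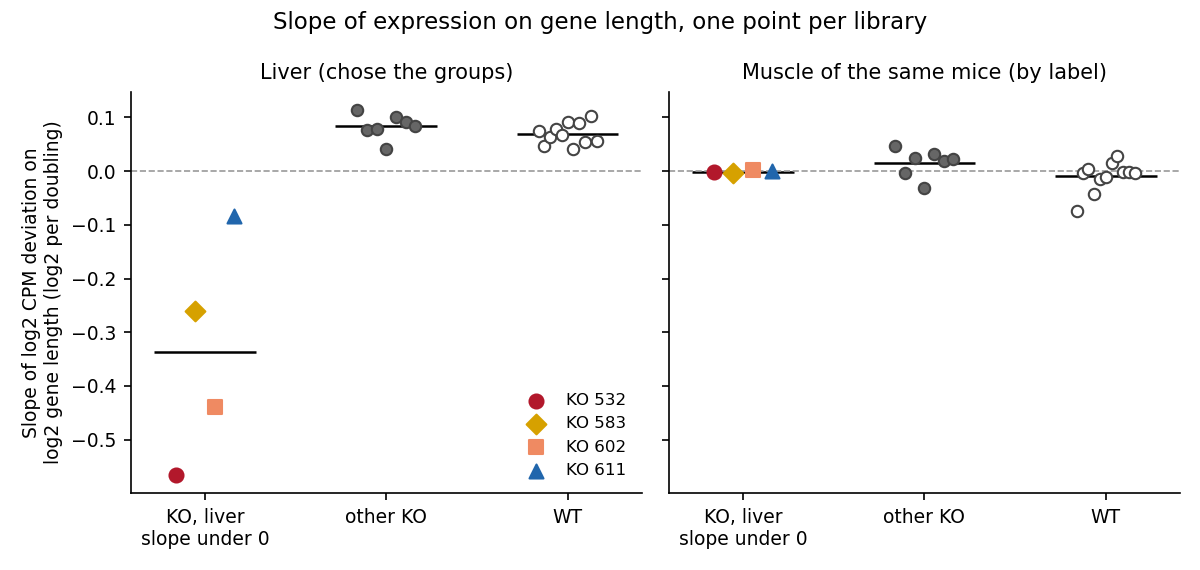
Slope of each library's log2 CPM deviation on log2 gene length (y axis) in liver (left) and in the muscle of the same mice (right), by group. Points are libraries and lines are group means. The liver panel shows the values that chose the groups, with 532 at -0.57 and 611 at -0.083, while the 4 muscle slopes of these mice lie between -0.0043 and 0.0012.

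The targeted gene was checked first. Slc16a13 had 8, 7, 0 and 6 reads in the length-biased KO livers and 0 to 5 in the other KO livers, against 99 to 302 in WT livers. All 11 KO livers thus matched their label. The total number of reads on genes was 28105756, 27485361, 27458545 and 31084170 in the length-biased livers and 20517872 to 25567448 in the other KO livers, so the groups did not overlap. The mean difference was 4559458 reads (28533458 ± 1726558 against 23974000 ± 1939219, SD, n = 4 and 7). That relation was known before the comparison was set up and comes from the libraries that chose the groups, so it is given without a test. Totals in WT livers spanned 20150712 to 33733103 with none of the WT slopes under 0. The part of depth in the results below was not tested.

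Short genes took a larger share of the reads and long genes a smaller one. Genes shorter than 1 kb took 17.8%, 16.5%, 13.6% and 11.8% of all reads in the length-biased livers and 9.64% to 10.6% in the other KO livers. Genes of 5 kb or longer took 3.02%, 3.36%, 4.22% and 5.25% against 6.42% to 7.10%. The order of the 4 livers was the same on both measures, and neither range touched that of the other KO livers or of the WT livers (9.96% to 10.7% for short and 6.59% to 7.22% for long genes).

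Gene by gene, 11829 genes with a mean CPM of at least 1 were described on CPM scaled by TMM. A gene was counted as higher when each of the 4 length-biased livers exceeded each of the 7 other KO livers, and as lower in the opposite case. By that rule 1305 genes were higher (11.0% of those described) and 1691 were lower (14.3%). Without animal 611, the shallowest member, these counts were 2600 and 2908. Since the same values chose the livers, these shares serve only as the background for the gene groups below. The higher genes had a median length of 1122 bases and the lower genes one of 4760, against 2430 for all genes described. Of 1209 genes under 1 kb, 533 were higher and 8 lower, and of 1440 genes of at least 5 kb, 2 were higher and 773 lower. Of these, 807 of the 1305 higher genes and 1034 of the 1691 lower genes ran through the 4 livers in the order of their slopes. The slopes were fitted to these same values, so that order is partly built in, here and in the single genes below, and adds no support.

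The difference was larger downwards than upwards. On mean log2 CPM, 659 genes were at least 2-fold lower in the length-biased livers and 64 at least 4-fold lower, whereas 126 were at least 2-fold higher and 13 at least 4-fold higher. Over all genes the median difference was -0.02 (log2), and it was -0.11 when CPM were scaled by library size alone, so differences are given relative to a centre that the scaling sets. Of all genes described, 48.85% had a higher mean and 51.15% a lower one. Of the 1209 genes under 1 kb, 1134 had a higher mean, and of the 1440 of at least 5 kb, 1394 had a lower one. The counts of higher or lower means in the lists below are to be read beside these shares.

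When the genes were ordered by length and divided into 10 groups of equal size, the median difference decreased from group to group, from 0.65 (log2) in the shortest (108 to 988 bases) through 0.05 in group 5 (2043 to 2430 bases) to -0.74 in the longest (5351 to 23739 bases). In the shortest group the median relative to the other KO livers was 1.05, 0.83, 0.48 and 0.21 in the 4 length-biased livers, while single other KO livers lay between -0.05 and 0.04. In the longest group it was -1.10, -0.90, -0.68 and -0.33, with the other KO livers between -0.08 and 0.05. In all 4 livers the median changed sign between groups 5 and 6, at a length near the median of all genes.

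**Figure D2:**
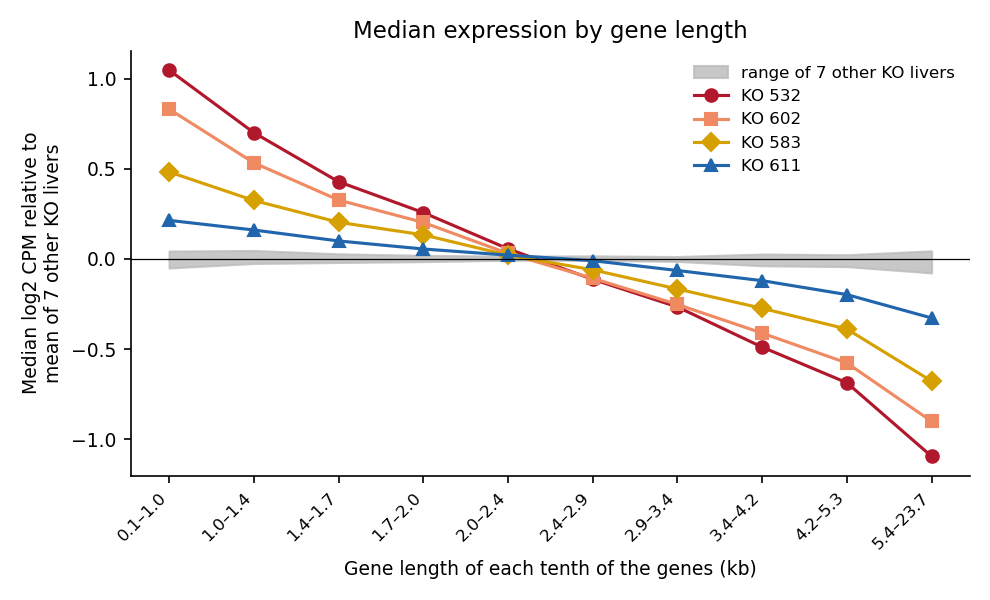
Median log2 CPM of 10 groups of genes by length (x axis, kb), given as the difference from the average of the 7 other KO livers (y axis). Lines are the 4 length-biased KO livers and the grey band is the range of the other KO livers. The medians run from 1.05 to -1.10 in animal 532 and from 0.21 to -0.33 in animal 611, with the band within -0.08 and 0.05.

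The machines built of small proteins stood on the high side. All 78 cytosolic ribosomal protein genes had a higher mean in the length-biased livers, with a median difference of 0.87 (log2), and 70 of them did not overlap with the other KO livers. The list's median in single livers was 1.36, 1.12, 0.71 and 0.26, against -0.07 to 0.05 in the other KO livers. Rps2, a protein of the small subunit, had 482, 438, 331 and 270 CPM against 212 to 242 (median 230), a 1.63-fold difference. Rps27, at 255 bases one of the shortest genes described, had 128, 104, 74.3 and 60.1 CPM against 40.7 to 47.6 (median 44.9). In both genes the 4 livers followed the order of their slopes without touching the others. Ribosomal protein genes have many near-identical processed copies, so how their reads were assigned is uncertain.

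The mitochondrial ribosome behaved alike in these values: the means of all 76 genes described were higher, 50 without overlap, with a median difference of 0.63 (log2). Mrpl12, a protein of its large subunit, had 208, 174, 127 and 94.2 CPM against 77.4 to 87.2 (median 81.4). Of 17 Sm and LSm genes, the rings of the spliceosome and of mRNA decay, 16 had a higher mean and 11 did not overlap (median 0.78). Snrpg, a core Sm protein, had 11.4, 9.63, 6.48 and 5.29 CPM against 3.28 to 3.92 (median 3.88). In the proteasome, whose catalytic core is made of small subunits and whose lid and base of larger ones, 32 of 34 genes had a higher mean and 19 did not overlap (median 0.53). Psmb4 of the core (655 bases) had 241, 202, 143 and 110 CPM against 84.5 to 102 (median 89.7), while Psmd1, the large scaffold of the regulatory particle (3035 bases), had 94.7, 115, 138 and 125 against 115 to 139 (median 133). Subunits of a single complex that are needed in fixed ratios were thus read in different ratios in the 4 livers.

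Oxidative phosphorylation split by genome. The chain and ATP synthase are assembled from many nuclear-encoded subunits, most of them small, and a few encoded in mitochondrial DNA. Nuclear subunits were on the high side: 35 of 36 genes of complex I had a higher mean (31 without overlap, median 0.76 on the log2 scale), all 12 of complex IV (12 without overlap, median 0.75), all 17 of complex V (16 without overlap, median 0.72) and 12 of 13 of complexes II and III (8 without overlap, median 0.50). Atp5e, the epsilon subunit of ATP synthase (423 bases), had 304, 243, 157 and 111 CPM against 81.9 to 96.1 (median 87.3), a 2.16-fold difference. Ndufa2, an accessory subunit of complex I (572 bases), had 180, 147, 91.6 and 62.9 CPM against 48.9 to 58.2 (median 50.0). Within the same complexes longer genes stood closer to the other KO livers. Atp5b, the catalytic beta subunit (1143 bases), had 1617, 1622, 1535 and 1272 CPM against 1132 to 1236 (median 1173), and Sdha, the flavoprotein of complex II (2331 bases), had 514, 582, 581 and 611 against 575 to 642 (median 618). Romo1, a small protein of the mitochondrial inner membrane (382 bases), had 56.5, 54.2, 33.1 and 19.7 CPM against 14.3 to 18.6 (median 16.6).

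The mitochondrially encoded transcripts went the other way although they are short. All 7 that were described, of 519 to 1824 bases, had a lower mean in the length-biased livers, with a median difference of -0.53 (log2) and 1 without overlap. Once the length trend was removed the median was -0.88, with 2 of 7 without overlap. On that scale the nuclear subunits had medians of 0.14 (complex I), 0.15 (complexes II and III), 0.08 (complex IV) and 0.11 (complex V). Those above the other KO livers without overlap numbered 2 of 36, 1 of 13, 1 of 12 and 3 of 17, and in complex V 1 gene was below them. Over all genes described, 4.29% were higher and 5.22% lower without overlap on that scale. mt-Nd5, a proton-pumping subunit of complex I, had 671, 1174, 1658 and 3493 CPM against 4087 to 5498 (median 4852), so that 532 held less than any other KO liver by far and 611 lay close to them. mt-Co1, the catalytic subunit of complex IV, had 6455, 9935, 10639 and 16675 CPM against 14913 to 17875 (median 16220). mt-Cytb of complex III had 6363, 9246, 8879 and 12611 against 9886 to 11734 (median 10684), and here 611 was above every other KO liver. Mitochondrial transcripts took 2.16%, 3.12%, 3.23% and 5.22% of all reads against 4.51% to 5.64%. Animal 611 was thus within the range of the other KO livers on this measure and the other 3 length-biased livers were below it. The annotated GC content was 37.1% in mt-Nd5, 39.9% in mt-Co1, 39.1% in mt-Cytb and 35.7% in mt-Nd2. These values lie in the lowest GC class described below (32.6% to 44.4%). The part of GC content in the mitochondrial difference was not tested. In a piece of tissue, fewer cells of a type and less RNA per cell cannot be told apart.

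The classes of giant proteins stood on the low side. All 16 giant ubiquitin ligases and PI3K-like kinases had a lower mean, 14 of them without overlap, with a median difference of -0.94 (log2). The list's median in single livers was -1.55, -1.12, -0.75 and -0.57 against -0.09 to 0.04 in the other KO livers. Birc6, a giant inhibitor of apoptosis (15510 bases), had 19.7, 29.2, 43.5 and 54.4 CPM against 85.6 to 94.5 (median 90.4). Smg1, the kinase of nonsense-mediated decay (14729 bases), had 12.1, 18.9, 30.2 and 35.5 CPM against 59.0 to 79.9 (median 62.5). In both genes the livers ran in the order of their slopes, and 611 was the nearest to the others while still below them.

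Of 30 chromatin giants, all had a lower mean and 28 did not overlap (median -0.91), and of 23 cytoskeletal giants, all had a lower mean and 19 did not overlap (median -0.67). Kmt2d, a histone H3K4 methyltransferase (19807 bases), had 14.6, 17.9, 26.5 and 24.7 CPM against 45.6 to 56.2 (median 49.3). Dst, a linker between the filament systems (17865 bases), had 34.3, 42.8, 61.3 and 62.7 CPM against 83.0 to 113 (median 90.1). The longest gene by the length used here, Zbtb20, a transcriptional repressor abundant in liver (23739 bases), had 18.2, 29.1, 29 and 45.9 CPM against 73.0 to 113 (median 91.8), a 3.11-fold difference. Tnrc6b, a scaffold of miRNA silencing (17329 bases), had 13, 17.5, 16.9 and 25.5 CPM against 42.9 to 49.9 (median 45). Birc6, Kmt2d, Dst, Zbtb20 and Tnrc6b, the 5 longest genes with a mean CPM of at least 10, all stood below the other KO livers without overlap, and in all 5 the groups overlapped once the length trend of each library had been removed.

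**Figure D3:**
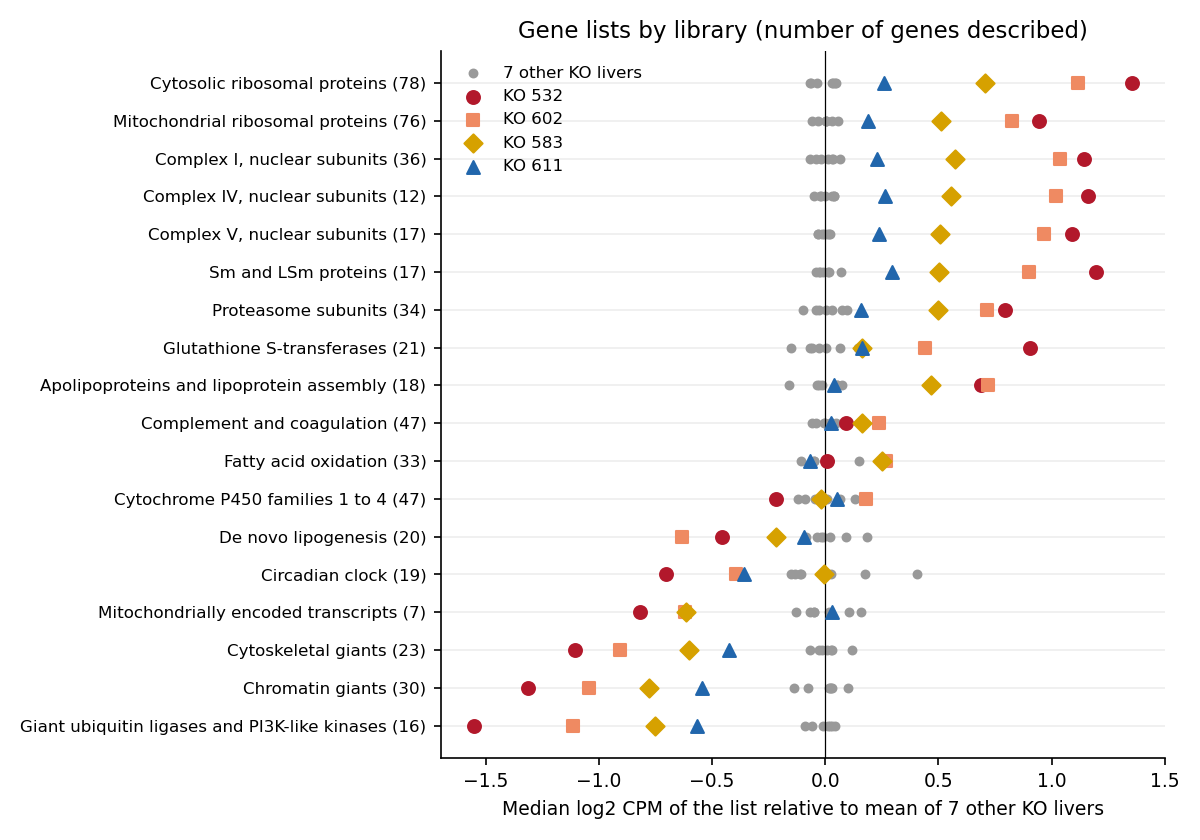
Median log2 CPM of gene lists as the difference from the average of the 7 other KO livers (x axis), with the number of genes described beside each list. Coloured symbols are the length-biased KO livers and grey points the other KO livers. Short-gene machines lie to the right (cytosolic ribosome, 0.26 to 1.36), giant proteins to the left (giant ligases and kinases, -1.55 to -0.57), and mitochondrially encoded transcripts lie to the left except in animal 611 (0.03).

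Metabolic pathways of the liver hold genes of every length, and in several of them short and long members came apart. Among the apolipoproteins and their assembly factors, all 6 genes under 1 kb had a higher mean (median 0.80), all 10 of 1 to 3 kb did too (median 0.35), and both genes of at least 3 kb had a lower one (median -0.72). Apoa2, a small protein of HDL (471 bases), had 16510, 15423, 11914 and 8519 CPM against 6936 to 7964 (median 7564). Apob, the structural protein of VLDL (6031 bases by the length used here), had 2717, 3580, 3952 and 4668 CPM against 6336 to 7634 (median 7230). The 2 genes, both secreted by hepatocytes on lipoproteins, did not overlap with the other KO livers in opposite directions. Asgr1, the short subunit gene of the asialoglycoprotein receptor (1163 bases), had 900, 922, 731 and 634 CPM against 553 to 603 (median 579), while Lrp1, a giant endocytic receptor (5759 bases), had 472, 574, 619 and 627 against 905 to 1028 (median 1008).

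In fatty acid oxidation the 6 genes of at least 3 kb all had a lower mean (median -0.50), whereas 18 of 24 genes of 1 to 3 kb had a higher one (median 0.19). In de novo lipogenesis 11 of 11 genes of at least 3 kb had a lower mean (median -0.45). The same held for all 8 such genes of gluconeogenesis and insulin signalling (median -0.47), all 8 of bile acid synthesis and transport (median -0.41), all 8 of complement and coagulation (median -0.37) and all 14 of RNA decay (median -0.41). Genes of 1 to 3 kb were mostly lower too in de novo lipogenesis (6 of 9, median -0.06). So were those of gluconeogenesis and insulin signalling (9 of 13, median -0.09). They were mostly higher in bile acid synthesis and transport (8 of 12), complement and coagulation (29 of 36) and RNA decay (10 of 16). In cholesterol synthesis all 5 genes of at least 3 kb were lower (median -0.55). Its 2 genes under 1 kb had a median of -0.55 too, 1 higher and 1 lower. Cytochrome P450 genes, 45 of 47 of which are 1 to 3 kb long, were centred near 0, with 24 higher and 23 lower means and 0 without overlap. Their median was 0.01 (log2), and its sign turned to -0.09 under scaling by library size alone. Glutathione S-transferase genes, none above 1665 bases, had a higher mean in 21 of 21 (median 0.38), 5 of them without overlap. Long members did not have a lower mean in every list: of the 2 P450 genes of at least 3 kb, 1 had a higher mean and 1 a lower one, and 3 of 16 such collagen genes and 3 of 25 laminin and integrin genes had a higher one. Among all genes of at least 5 kb, whatever their list, 1394 of 1440 had a lower mean.

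Several genes that often serve as readouts of hepatic metabolism were among those that differed, but single genes do not stand for their lists. In fatty acid oxidation 1 of 33 genes was lower without overlap and 3 were higher. In de novo lipogenesis 2 of 20 were lower and 2 higher. In gluconeogenesis and insulin signalling 5 of 21 were lower, in bile acid synthesis and transport 5 of 20, and 0 were higher in either. Over all genes 14.3% were lower and 11.0% higher. Ppara, the nuclear receptor that drives fatty acid oxidation in fasting (2568 bases), had 17.3, 41, 75.0 and 87.7 CPM against 166 to 194 (median 180), a 3.89-fold difference. Gpam, the acyltransferase that starts glycerolipid synthesis, had 16.1, 35.2, 71.5 and 93.8 CPM against 122 to 158 (median 140). Irs1, an adaptor of the insulin receptor, had 2.14, 4.94, 9.07 and 9.69 CPM against 15.6 to 35 (median 22), and Irs2, the other main adaptor, had 0, 0.913, 3.77 and 3.50 against 3.53 to 11.6 (median 6.14), with overlap. Abcc2, the canalicular exporter of conjugates, had 83.5, 128, 178 and 253 CPM against 396 to 496 (median 431). In Ppara, Gpam, Irs1 and Abcc2 each of the 4 livers was below every other KO liver, in the order of the slopes. Other abundant genes showed no such separation. Alb, encoding albumin, had 77838, 83675, 76114 and 76200 CPM against 61729 to 79579 (median 74459). Scd1, a desaturase of lipogenesis, ranged from 564 to 7166 CPM among the other KO livers and from 1119 to 7282 among the length-biased ones.

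Annotated features that the choice of livers did not use were compared next, for 11353 protein-coding genes of GENCODE release M21 matched by identifier. Across genes, which are not independent replicates, the difference ran against the length of the annotated mRNA (Spearman's rho -0.74), of the coding sequence (-0.58) and of the 3′ UTR (-0.54), less so against that of the 5′ UTR (-0.18), and with GC content (0.41). These features are correlated with each other and with the length that entered the slopes. Coding sequence and 3′ UTR each carried a gradient when genes were first divided by the other into 5 classes. Among genes with the shortest coding sequences (75 to 753 bases), the median difference went from 0.70 (log2) with the shortest 3′ UTRs to -0.12 with the longest. With the shortest 3′ UTRs (0 to 327 bases) it went from 0.70 to -0.19 as the coding sequence lengthened. Genes in the longest class of both had a median of -0.82.

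**Figure D4:**
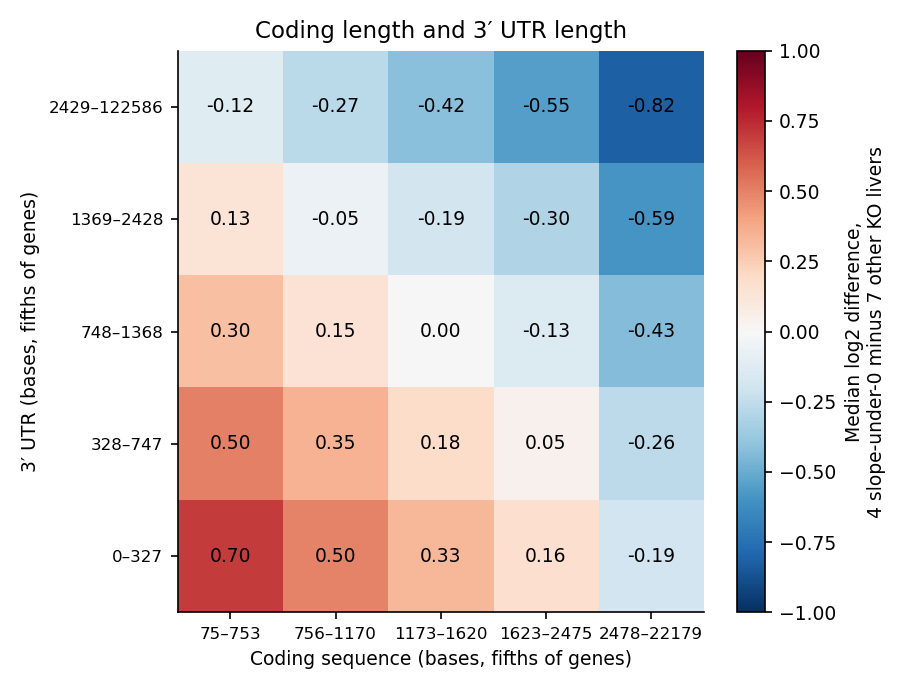
Median log2 difference between the length-biased and the other KO livers (colour and printed value) for protein-coding genes in 5 classes of coding sequence length (x axis, bases) and 5 of 3′ UTR length (y axis, bases). Values go from 0.70 in the short and short corner to -0.82 in the long and long corner, and each row and column falls in the same direction.

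GC content held a gradient of its own within mRNAs of like length. Among the shortest mRNAs (201 to 1743 bases) the median difference went from 0.32 (log2) at the lowest GC content (32.6% to 44.4%) to 0.62 at the highest (55.8% to 72.3%), and among the longest (from 4974 bases) it went from -0.79 to -0.36. After the length trend had been removed the correlation with GC content was 0.44 across genes. By library, the correlation of the deviation with GC content was 0.39, 0.40, 0.46 and 0.09 in the length-biased livers, and it ran from -0.29 to 0.34 in the other KO livers. Animal 611 thus had the length gradient (rho with mRNA length -0.54) without a GC gradient outside the range of the other KO livers, while the other 3 had both.

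To describe what the length in use did not account for, a loess curve of log2 CPM on log2 length was subtracted in each library. The length in use is implied by counts and RPKM. The remaining difference still ran against the length of the annotated mRNA (Spearman's rho -0.14 across 11353 protein-coding genes). The SD of the difference over all genes went from 0.57 to 0.41 (log2). Non-overlapping genes then numbered 508 higher (4.29% of those described) and 617 lower (5.22%). Without animal 611 both directions together numbered 3211. The largest remaining differences were on the low side. Zfp871, a zinc finger protein, had 0.827, 1.33, 2.98 and 6.93 CPM against 19.9 to 29.1 (median 26.5), a difference of -3.47 (log2) that was -2.92 after removal of the trend. Gm38394 had 0.451, 2.49, 6.68 and 15.0 CPM against 35.8 to 51.1 (median 40.8). Lmbrd2 had 1.24, 1.74, 5.03 and 14.5 CPM against 23.6 to 32.1 (median 31.1). In these 3 genes animal 532 held between 0.451 and 1.24 CPM, in each the lowest value among all KO livers.

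Others of this kind were Pdpr, a regulator of pyruvate dehydrogenase phosphatase, with 1.2, 3.49, 9.82 and 18.4 CPM against 32.5 to 39.9 (median 36.5), and Bmpr2, a receptor for bone morphogenetic proteins, with 1.28, 1.33, 3.42 and 5.17 against 11.2 to 14.9 (median 14.4). From the list of RNA decay genes, Xrn1, the main cytoplasmic 5′ to 3′ exonuclease, had 0.263, 0.124, 1.65 and 3.66 CPM against 6.39 to 7.32 (median 6.63), and Cnot1, the scaffold of the deadenylase complex, had 43.3, 53.7, 67.0 and 79.7 against 101 to 123 (median 116), and only Xrn1 of this pair stayed without overlap once the trend was removed. The annotated 3′ UTR was 8859 bases in Zfp871, 5770 in Lmbrd2, 5495 in Gm38394, 8532 in Bmpr2 and 6192 in Foxn3, a forkhead factor on the same list. It was 408 bases in Mfsd4a, a transporter-like protein of 1738 bases, which nevertheless had 0.752, 1.78, 5.07 and 8.56 CPM against 13.7 to 16 (median 14.5). It was 2065 bases in Pdpr, 1922 in F830016B08Rik and 2950 in Sntb1, which completed the list of 10 except for Gm8941, for which no 3′ UTR was given. No comparison of these lengths with those of all genes was made. The length in use was far below that of the annotated mRNA in some of these genes, with 4955 against 10851 bases in Zfp871 and 3555 against 12899 in Bmpr2. It was nearly the same in others, with 10157 against 10156 in Gm38394 and 4939 against 4938 in Pdpr. The part of length in these remaining differences was not tested.

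On the high side some genes that are long by the length in use did not follow the trend. Ncl, encoding nucleolin (8257 bases by the length used here), had 173, 178, 171 and 166 CPM against 137 to 166 (median 151), a difference of 0.17 (log2) that became 1.04 once the trend was removed. Serbp1, an mRNA-binding protein (6685 bases), had 98.7, 102, 100 and 88.0 CPM against 75.0 to 92.1 (median 83.7). Sart1, a factor of the spliceosome (5091 bases), had 39.4, 41.1, 35.2 and 28.2 CPM against 21.4 to 28.9 (median 26.1). The annotated 3′ UTRs of Ncl, Serbp1 and Sart1 are 5904, 13780 and 2597 bases long. The shortest annotated mRNA with nearly the full coding sequence has 8202 bases in Ncl and 5091 in Sart1, but 1336 in Serbp1. The length in use is the one that counts and RPKM together imply, and the length of the mRNA made in liver was not measured.

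A few genes stood higher than their length would place them. Gm12744, annotated as an antisense RNA of 519 bases, had the largest difference upwards among genes with a mean CPM of at least 10 whose groups did not overlap, with 126, 67.2, 48.0 and 33.5 CPM against 7.07 to 15.6 (median 11.1), a 5.36-fold difference. Whether counting used the strand is not stated, so its reads cannot be told apart from those of its sense partner. C2, a component of the classical complement pathway, had 490, 380, 214 and 189 CPM against 114 to 161 (median 126), and its difference of 1.19 (log2) was 0.98 without the length trend. Zap70, a kinase of T cell receptor signalling, had 25.1, 13.8, 17.9 and 14.5 CPM against 6.99 to 9.18 (median 8.34). These 3 genes did not overlap on either scale.

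**Figure D5:**
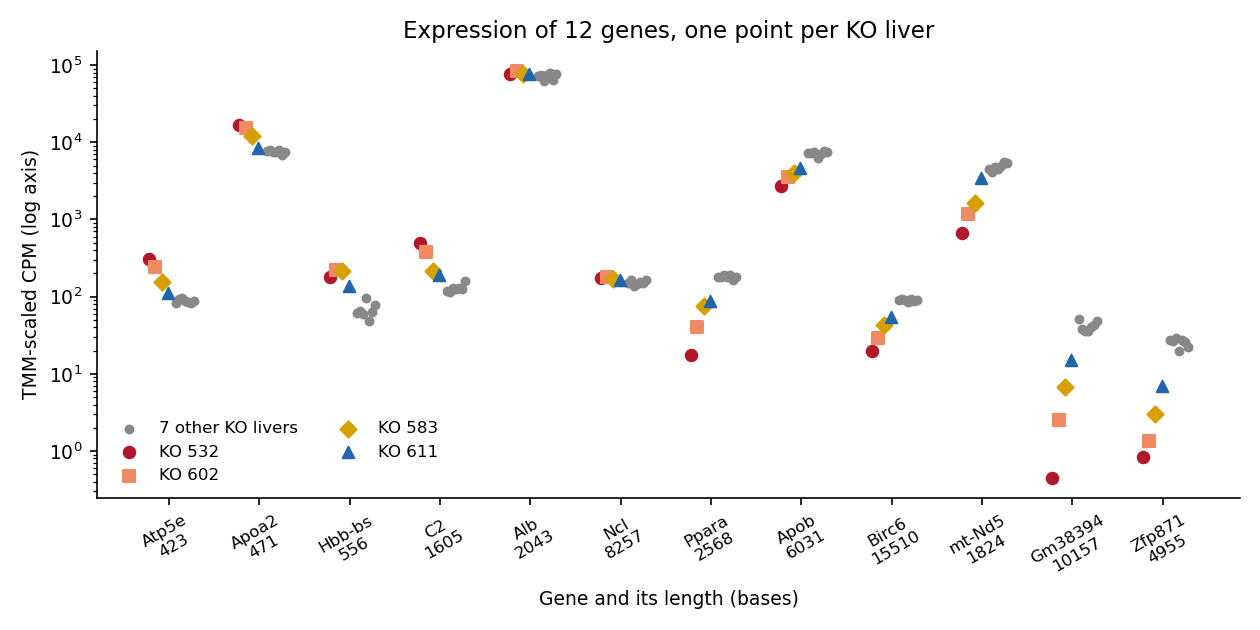
TMM-scaled CPM of 12 genes (log axis) in each KO liver, with the gene's length in bases under its name. Coloured symbols are the length-biased KO livers and grey points the other 7. Atp5e and Apoa2 lie above the grey points and Apob, Birc6 and Ppara below them, Alb and Ncl overlap or touch them, and Zfp871 and Gm38394 lie lowest, down to 0.827 and 0.451 CPM in animal 532.

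Markers of blood stood higher in all 4 livers. Of 7 erythroid markers 5 were described, and all 5 exceeded every other KO liver, with a median difference of 1.48 (log2). The summed level of the 7 was 467, 573, 528 and 392 CPM, against 202 to 290 (median 252) in the other KO livers and 223 to 331 in WT livers, and none of the 7 was at 0 in every KO liver. Hbb-bs, the main adult beta-globin gene, had 179, 222, 214 and 137 CPM against 48.5 to 95.9 (median 63.5). Hba-a1, an alpha-globin gene, had 54.1, 75.0, 68.3 and 37.1 CPM against 13.6 to 29 (median 17.7). Alas2, the erythroid enzyme of haem synthesis and the longest of the 5 at 1878 bases, had 176, 188, 167 and 167 CPM against 121 to 159 (median 134). The globin genes are short, their near-identical copies share reads, and after removal of the length trend 0 of the 5 remained without overlap while all 5 kept a higher mean. Animal 532, steepest in slope, was not the highest for globins. The part of blood in the other differences was not tested.

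The labelled tissue was checked against hepatocyte markers, whose summed level was 125784, 142799, 130476 and 114417 CPM in the length-biased livers and 98147 to 123329 in the other KO livers. Liver endothelial markers summed to 398, 397, 426 and 415 CPM against 444 to 482, and 9 of the 10 had a lower mean (median -0.38), 1 without overlap. Of these 10 genes 5 are at least 3 kb long, and once the length trend was removed the median of the list was -0.008. In WT livers the endothelial sum ran from 418 to 487 CPM. Stellate cell and fibroblast markers (202 to 358 CPM against 234 to 397), cholangiocyte markers (56.8 to 83.5 against 43.1 to 84.6) and adipocyte markers (1635 to 2971 against 1903 to 3140) overlapped in their sums. Lymphocyte markers, of which 2 of 10 were described, summed to 17.2, 7.5, 5.3 and 8.3 CPM against 3.6 to 7.2. Pancreatic acinar markers summed to 0.16 to 0.31 CPM against 0.04 to 0.6. The share of these cell types in the differences between the livers was not tested.

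Animal 532 stood apart in a further way. The median of 24 acute phase genes, made by hepatocytes in inflammation, was 1.32 (log2) in this liver against -0.07, -0.16 and 0.02 in the other length-biased livers, and among the other KO livers it reached 1.09 in animal 597. The difference of the list between the groups, 0.28, was -0.07 without 532. Saa3, an inducible serum amyloid, had 98.6, 10.6, 7.62 and 6.32 CPM against 2.32 to 12.2 (median 5.62). Ly6a had 85.1, 9.17, 11.2 and 8.47 CPM against 5.32 to 7.88 (median 6.66), Psmb8 of the immunoproteasome 170, 36.7, 24.4 and 28.2 against 16.3 to 23.4 (median 19.8), and Lyz2, a macrophage lysozyme, 382, 70.7, 73.4 and 83.2 against 50.0 to 106 (median 68.7). Kupffer cell and macrophage markers summed to 1331 CPM in 532, to 504, 504 and 654 in the other 3 and to 349 to 581 in the other KO livers. Neutrophil markers summed to 14 CPM in 532, to 1.4 to 3.5 in the other 3 and to 0.6 to 3.0 in the other KO livers, and Ly6g was at 0 in all KO livers. Animal 532 had the highest level of all KO livers in each of these measures. Ly6a and Psmb8 were also above every other KO liver in the remaining 3 length-biased livers, at much lower levels, as were the Kupffer cell and neutrophil sums in 611.

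Major urinary proteins, a family of near-identical genes whose reads cannot be assigned with certainty, varied as much within each group. Their list median was -1.04, 1.72, 0.70 and 1.26 (log2) in the length-biased livers and ran from -1.64 to 0.89 in the other KO livers. Mup9 had 4.36, 144, 34.1 and 158 CPM against 3.44 to 51.9 (median 21.4). Of the skeletal muscle markers 3 of 12 were described. The 12 summed to 29.5, 18.9, 10.5 and 16.65 CPM against 15.2 to 25.2 in the other KO livers. In WT livers the sum ran from 16.6 to 79.1 CPM. Myh4, a fast myosin, had 9.88, 5.93, 1.18 and 1.12 CPM against 0 to 2.14 (median 0.785), while Neb, the giant nebulin gene, had 5.38, 4.90, 6.09 and 12.7 against 13.3 to 20.3 (median 16.6), and Myh2 was at 0 in all KO livers.

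Muscle could be tested, because no muscle library entered the choice of livers. In muscle, however, the few reads of Slc16a13 did not tell the labels apart. It had 11, 14, 16 and 40 reads in the libraries of the 4 mice and 12 to 28 in those of the other 7 KO mice, against 4 to 22 in WT. The paper describes its expression in skeletal muscle as marginal. These libraries are therefore called the muscle libraries labelled KO. The match of a muscle to a liver rests on the animal number in the labels alone, so the same doubt reaches every comparison of muscle below. By the same regression on 22 muscle libraries, the muscle slopes were -0.0021, 0.0012, -0.0043 and 0.00069 in the mice with a length-biased liver and -0.032 to 0.047 (median 0.023) in the others. The mean difference was -0.017 (-0.0011 ± 0.0025 against 0.016 ± 0.026, SD, n = 4 and 7), with a two-sided exact permutation p = 0.245. Without animal 587 it was -0.025 with an exact permutation p = 0.0333. In the muscle libraries that carry the numbers of 532 and 602, whose liver slopes were -0.57 and -0.44, the slopes were thus near 0. Total reads in muscle were 21703841, 30508113, 27975329 and 35218243 against 22715702 to 27110974, with an exact permutation p = 0.167.

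Among 13617 genes tested in muscle, 0 differed between the mice with a length-biased liver and the other KO mice (0% called, adjusted p under 0.05, edgeR's quasi-likelihood test). Without adjustment, 275 genes (2.02% of those tested) had a p under 0.05, and DESeq2 and limma-voom also called 0. The 3 genes with the smallest p were Myo1a, an unconventional myosin, Gm22133 and Dmp1, a matrix protein of bone. Myo1a had 0.687, 0.392, 0.412 and 0.445 CPM against 0.0770 to 0.313, a log2 fold change of 1.35 (SE 0.31). It had an adjusted p of 1.0, as did the other 2.

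The liver's gene groups showed no counterpart in muscle that passed the test. The median log2 fold change in muscle was 0.01 for 78 cytosolic ribosomal protein genes (54 higher), 0.05 for 36 genes of complex I (36 higher), -0.06 for 30 chromatin giants (4 higher) and -0.02 for 16 giant ligases and kinases (5 higher), with 0 genes called in any list. Over all genes the median was 0.01, with 7146 of 13617 higher. The liver differences of these lists were 0.87, 0.76, -0.91 and -0.94. Other nuclear subunits of the respiratory chain were mostly higher in muscle too, each list with a median of 0.07. They were 13 of 13 in complexes II and III, 13 of 13 in complex IV and 16 of 17 in complex V. Of the genes that stood out in liver, Zfp871 had a log2 fold change in muscle of 0.10 (SE 0.18), Lmbrd2 one of 0.06 (SE 0.14), Gm38394 one of 0.01 (SE 0.13) and Ppara one of 0.03 (SE 0.23), with an adjusted p of 1.0 each by edgeR. The 5 erythroid markers had a median of 0.77 in muscle, all 5 higher, 3 of them with an unadjusted p under 0.05 by edgeR. Hbb-bs in muscle had 38.8, 34.2, 31.6 and 110 CPM against 21.4 to 46.5, with a log2 fold change of 0.76 (SE 0.33) and an adjusted p of 1.0 by edgeR. Only animal 611 lay above the other mice for Hbb-bs.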

How the data were processed

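RNA from the livers and muscles of 11 WT and 11 KO mice gave 44 libraries in all. The authors deposited, per gene and library, the count of reads and the RPKM. The RPKM values deposited by the authors served only to obtain gene length, as the median over liver libraries of count divided by RPKM and library total. The aligner, counter, genome build and annotation are not given in the sources used here, and no per-sample column was left unassigned. Genes with a mean CPM of at least 1 over 22 livers were kept, and log2 CPM used a prior count of 2. KO livers were divided at a slope of 0 as described. Gene values are CPM scaled by TMM (edgeR 4.0.16, R 4.3.3), and features come from GENCODE M21, matched by gene identifier. The length trend was removed in each library by loess (span 0.3). Because liver expression chose the groups, liver genes and liver totals are given without a test. Muscle slopes and totals were compared by two-sided exact permutation tests over all assignments of the mice. Spearman's correlations were computed with scipy 1.17.1. Muscle genes were tested with edgeR's quasi-likelihood test and Benjamini-Hochberg adjustment, with DESeq2 1.42.0 and limma-voom (limma 3.58.1) as alternatives. The edgeR code for muscle genes was tested on simulated counts. Other scalings, filters, prior counts and leaving out each KO mouse were also tried. Livers had 20150712 to 33733103 reads on genes, and replicates were separate mice.

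The members and the gene lists were chosen with earlier results of these data known. Named genes were Slc16a13, the 10 largest and 10 smallest differences without overlap at a mean CPM of at least 10, before and after removal of the length trend, the 5 longest and 5 shortest genes, up to 2 members of each list by level and 2 by difference, and the 3 genes with the smallest p in muscle. Some of these genes are not reported here.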

Additional observations from a re-analysis of the deposited data

Results flagged for a closer look

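Measures of the libraries, list medians and levels of genes named in the text were screened for a single library far from the rest of its group. Over the groups of 4 and 7 KO mice together, 232 such sets of values were screened and 10 were picked out. Chance alone picks out about 5% of such sets, and 10 of 232 did not exceed that share. Some of the genes were named for large differences between these same livers. Among the length-biased livers all 5 were animal 532. Its list median was 1.315 (log2, relative to the other KO livers) for acute phase proteins, -0.5512 for bile acid synthesis and transport and -0.4043 for RNA decay. Its level was 85.06 CPM for Ly6a and 382 CPM for Lyz2. Among the other KO livers, animal 597 was picked out with a median of 1.088 for acute phase proteins and with 114.8 CPM for Psmd1. Apob was lowest in animal 587 at 6336 CPM, C2 was highest in animal 598 at 161.2 CPM, and Myh4 was 0 CPM in animal 568, which stood below the other 6 livers of its group.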

How the results depend on the processing

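No paired analysis was possible because the 2 groups of KO livers hold different mice. The difference in slope was -0.4208, and it was -0.1937 on genes with a mean CPM of 0.1 to 1 alone, where 2 of the other KO livers, 568 and 587, also had a slope under 0. Leaving out 1 KO mouse gave -0.5056 (without 611) to -0.3446 (without 532). Under the same omissions, 1342 to 2600 genes were higher, 1726 to 2908 lower, and 1200 to 3211 did not overlap after removal of the length trend, each highest without 611. Without the 2 livers nearest a slope of 0 (611 and 587), an alternative chosen after seeing the data, these were 2699, 3001 and 3445. A group with fewer livers has fewer conditions to meet for no overlap. The difference in liver totals was 3709220 (without 611) to 4917762 reads (without 583). The muscle slope difference was -0.02483 (without 587, exact permutation p = 0.0333) to -0.01173 (without 561), with p up to 0.414. Muscle genes past the threshold numbered 0 under every alternative run, with 180 to 1380 at an unadjusted p under 0.05. Library size scaling gave 1052 higher and 1871 lower genes, and DESeq2 size factors gave 1446 and 1551. The remaining differences between KO livers have no test, and 4 livers, 1 of them near the threshold, limit their precision.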

Other observations

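Other gene groups of the KO livers are given as values. Of 25 heat shock and unfolded protein response genes, 19 had a higher mean in the length-biased livers (median 0.30 on the log2 scale), with list medians of 0.31, 0.39, 0.56 and -0.08 in 532, 602, 583 and 611 against -0.63 to 0.58 in the other KO livers, which overlapped. Of 19 circadian clock genes 14 had a lower mean (median -0.41), and 12 of the 13 clock genes of at least 3 kb did. Collagen genes had a median of -0.23, with 15 of 19 lower, yet single livers ran from -0.73 to 0.18 against -0.41 to 0.44. Of 13 nuclear and host noncoding RNAs 10 had a higher mean (median 0.43), and all 8 under 1 kb did. Malat1, a long nuclear RNA, had 47.4, 44.1, 64.0 and 102 CPM against 113 to 222 (median 140) and did not overlap.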
